A study of Schmidtea mediterranea with 89 samples.

Results

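The first day on a flat culture plate was examined in experiment 3 by setting neoblasts lysed after 1 day in culture against neoblasts of the same experiment lysed without any culture. The comparison rests on 6 of the 89 libraries of the series, 3 from flat plates at 1 day and 3 from uncultured cells, chosen by the column names of the deposited table and not by any measured value. All 6 libraries were labelled as wild-type planarian SiRNeoblasts of the flatworm Schmidtea mediterranea, a name in use for neoblasts sorted alive with a far-red dye for nuclear DNA, and no transgene, knockdown or added tissue extract was named for any of them. The flat-plate cells had been kept in a medium based on KnockOut DMEM with non-essential amino acids, vitamins, pyruvate, antibiotics and heat-inactivated fetal bovine serum, and the uncultured cells had been in no culture at all. Any effect of the medium, the plastic and the elapsed day therefore cannot be told apart in these groups. For sequencing, cDNA was made by reverse transcription with a template-switching oligo and then PCR-amplified and tagmented with Tn5.

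Neoblasts are the dividing stem cells of adult planarians, from which these worms replace all their differentiated tissues during normal turnover and regeneration. They are conventionally sorted from dissociated animals by their DNA content, and they lose their surrounding tissue and its signals when plated. Sustained culture of planarian stem cells has been difficult, and the first day after plating is the step in which a sorted cell meets an artificial medium. The deposited tables list transcript identifiers without gene names, and no annotation was used here. The neoblast label was therefore not checked against marker genes, and the results below are given by identifier and by abundance.

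The 6 libraries held between 17302795 and 25588459 estimated counts over 36035 identifiers. Whether the 3 libraries of a group stem from different cultures or sorts is not stated in the labels, and p-values therefore speak of the spread among these libraries alone, part or all of which may be technical. Replicate libraries differed by more than counting noise, so none was treated as a second deposit of another. Values of all 26 libraries of experiment 3 entered the fits that gave adjusted p-values. Those beyond the 6 came from flat plates on later days, from U-bottom plates and from a polyacrylamide gel. As RNA was taken from whole cell populations, fewer cells of a kind and less RNA per cell cannot be told apart in any difference below.

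Fewer identifiers were detected after 1 day in culture. A count above 0 was assigned to 25467, 24758 and 26419 identifiers in the flat-plate libraries, against 27989, 27666 and 28390 in the uncultured libraries. The groups did not overlap, and they averaged 25548 ± 833 and 28015 ± 363 identifiers (SD, n = 3 each). The difference in means was -2467, with p = 0.1 in a two-sided exact permutation test, the smallest p that 3 libraries against 3 can give. The total counts of the groups overlapped, at 20223888 to 25588459 on flat plates and 17302795 to 21992624 in uncultured cells. At equal depth the difference was -2714 identifiers, and at equal depth after removal of the 4 most abundant identifiers it was -2043.

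The missing detections lay at low abundance. Of 32837 identifiers seen in at least 1 of the 6 libraries, 20198 were seen in all 6. At 0 in all 3 flat-plate libraries and above 0 in all 3 uncultured libraries were 756 identifiers, and 127 showed the converse. Few of these had been abundant in the group that held them: 2 identifiers absent from uncultured cells reached a mean of 1 CPM (counts per 1000000, here of the library size after scaling) on flat plates, and 20 identifiers absent from flat plates reached it in uncultured cells. The 20 had a median of 1.57 CPM and a highest value of 5.15 CPM in uncultured cells, and the 2 reached at most 2.45 CPM on flat plates. Against a floor of 3 counts over the 3 flat-plate libraries, the level of the 20 in uncultured cells was 43.0-fold higher at their median and 141-fold at the most. The 20 were picked for being at 0 on flat plates, so these folds describe the list and set no lower bound on a change. Molecular identifiers are not mentioned in the labels, so this floor covers counting error only. No identifier of 10 CPM or more was silent throughout one of the groups.

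A very small number of identifiers carried most of the counts, and their proportions shifted on the first day. The leading 4 identifiers, by mean share over these 6 libraries, took 65.4%, 69.8% and 68.2% of all counts on flat plates, against 57.5%, 58.4% and 54.6% in uncultured cells. Means were 67.8% ± 2.26 and 56.8% ± 1.95 (SD, n = 3 each), without overlap and with p = 0.1 in the two-sided exact permutation test. These 4 are called by their rank in abundance, and the fold changes given for them were looked at after their shares had been seen.

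The identifier of rank 1 took 36.6%, 43.1% and 43.2% of counts on flat plates and 10.4%, 13.7% and 10.8% in uncultured cells. Its log2 fold change was 2.10 (SE 0.43, edgeR adjusted p = 0.000453). The identifier of rank 2 moved the opposite way, with 11.8%, 10.5% and 10.3% on flat plates and 29.5%, 30.7% and 28.1% in uncultured cells, and a log2 fold change of -1.15 (SE 0.27, edgeR adjusted p = 0.00182). The leading identifier of the libraries was thus rank 1 in every flat-plate library and rank 2 in every uncultured one. Rank 4 also rose, to 4.08%, 4.32% and 4.52% on flat plates, against 2.41%, 3.15% and 2.51% in uncultured cells (log2 fold change 0.96, SE 0.26, edgeR adjusted p = 0.00559). Rank 3 held 12.8%, 12.0% and 10.1% on flat plates and 15.2%, 10.8% and 13.2% in uncultured cells. Its groups overlapped, and its log2 fold change of 0.12 (SE 0.26) did not pass the test, with an edgeR adjusted p of 0.756. A share depends on every other share of its library, and the fold changes are on the scaled library size, so the share and the fold change of rank 3 have different signs.

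**Figure D1:**
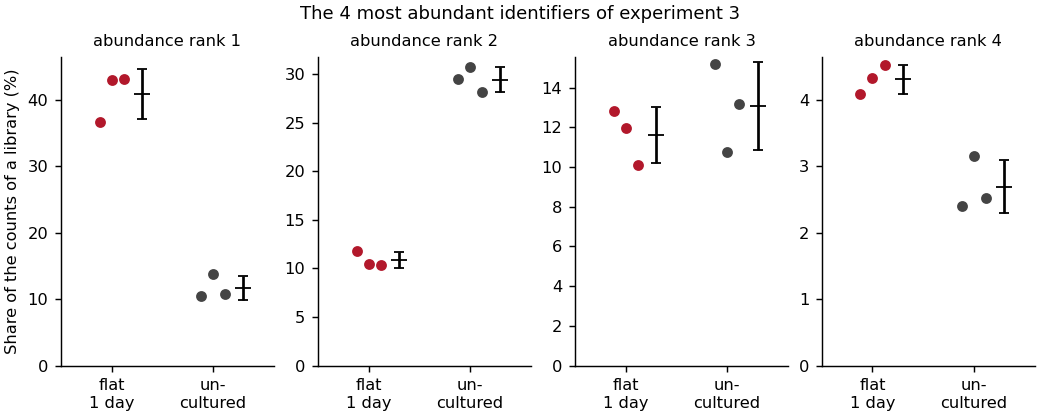
Share of all counts of a library (%, vertical axis from 0) held by each of the 4 most abundant identifiers, 1 panel per identifier, in the 3 flat-plate libraries at 1 day (red) and the 3 uncultured libraries (grey). Points are libraries and bars are the mean ± SD: for ranks 1 and 4 all flat-plate points lie above the uncultured ones, for rank 2 all lie below, and for rank 3 the groups overlap.

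On later days the shares stayed closer to those of the first day than to those of uncultured cells for ranks 1, 2 and 4. Rank 1 averaged 41.0% ± 3.76 at 1 day, 44.4% ± 7.83 at 2 days and 31.8% ± 5.46 at 3 days (SD, n = 3 each). Rank 2 averaged 10.9% ± 0.819, 11.5% ± 1.38 and 15.1% ± 2.87 over the same days, and rank 4 4.31% ± 0.221, 4.82% ± 0.0734 and 4.25% ± 0.373. Uncultured cells averaged 11.6% ± 1.82 for rank 1, 29.4% ± 1.28 for rank 2 and 2.69% ± 0.399 for rank 4.

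The libraries separated by culture and not only through these 4 identifiers. The distance between libraries was taken as the percentage of counts that would have to move to another identifier to make a pair of libraries alike. It averaged 35.2% between flat-plate and uncultured libraries (range 30.4 to 39.6%) and 6.71% within groups (range 3.91 to 9.23%). Without the 4 most abundant identifiers it averaged 21.9% between groups (range 20.3 to 24.8%) and 7.28% within them (range 5.56 to 9.80%). The exact permutation test of the difference, one-sided, gave p = 0.1 with and without those identifiers, the smallest possible. Outside the 4, flat-plate libraries were farther from each other, at 8.83% on average, than uncultured libraries were, at 5.72%, a difference that was not tested.

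Lists of the most abundant identifiers changed accordingly. Leaving out the 4, the 100 most abundant identifiers of the group means shared 78 members. Single flat-plate and uncultured libraries shared between 77 and 83 of 100, whereas flat-plate libraries shared 93 to 96 with each other and uncultured libraries 92 to 93. Of 500, the group means shared 372, and the ranges were 352 to 383 between groups, 453 to 467 within flat-plate libraries and 466 to 476 within uncultured libraries.

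Across the 20949 identifiers that passed the expression filter, the first day changed 5876, or 28.0%, at an edgeR adjusted p under 0.05. Of all identifiers tested, 12.8% were called higher after 1 day (2691) and 15.2% lower (3185). The median log2 fold change over all identifiers tested was -0.03. Groups that do not overlap were more frequent than calls: in 11995 identifiers, or 57.3%, all 3 flat-plate libraries lay on the same side of all 3 uncultured libraries. Almost every call was of that kind, at 98.6% of the higher and 99.7% of the lower calls. The total moved with the libraries and with the fit. Without replicate 3 of flat 1 day it was 3901, fitted to the 6 libraries alone it was 9659, and the common biological coefficient of variation was 0.337 with all groups of experiment 3 and 0.211 with these 6 libraries. Uncultured libraries were the least variable group of the experiment, at 0.169 alone, against 0.285 for flat plates at 1 day alone.

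Which direction had more calls was not stable over the fits run. Lower calls exceeded higher calls by 494 in the fit reported, whereas higher calls exceeded lower ones with no low-count filter, at 3069 against 2825. The same happened when only the uncultured and the 1-day groups were fitted, at 4100 against 4033, an alternative chosen after seeing the data. With RLE scaling in place of TMM there were 2143 higher and 3688 lower calls, and the median log2 fold change of all identifiers was -0.14. With the 4 most abundant identifiers removed before scaling and fitting there were 2815 higher and 2908 lower calls, so the count of calls was nearly as large without them.

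**Figure D2:**
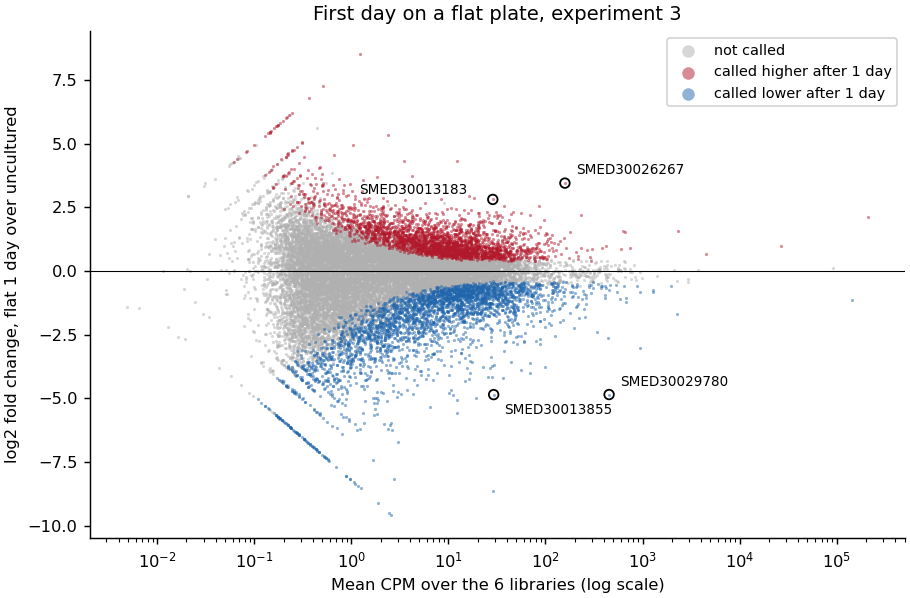
Log2 fold change, flat 1 day over uncultured in experiment 3 (vertical axis), against the mean CPM of the 6 libraries (horizontal axis, log scale), with 1 point per identifier tested. Red points were called higher after 1 day (2691), blue points lower (3185) and grey points were not called, and the 4 identifiers named in the text are circled: lower calls reach farther from 0 than higher calls over most of the abundance range.

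Large changes were mostly decreases. The median absolute log2 fold change was 1.61 among lower calls (quartiles 1.01 and 2.70) and 1.14 among higher calls (quartiles 0.81 and 1.63). Estimates past 8-fold numbered 664 among lower calls and 113 among higher calls. These counts disregard the SE, and not all of the 664 passed the test against 2-fold that follows. Tested against a 2-fold change with edgeR's glmTreat, 824 identifiers passed, 3.93% of those tested, of which 601 were lower and 223 higher. Lower calls exceeded higher calls beyond 2-fold under every alternative fit and every omission of a library that was run. They ran from 192 lower and 98 higher among identifiers of at least 10 CPM over all 26 libraries to 1890 lower and 716 higher in the fit to the 6 libraries alone. Their total depended on single libraries: it was 516 and 395 without flat replicates 2 and 3, and 538, 491 and 433 without uncultured replicates 1, 2 and 3.

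The balance of directions varied with abundance. Among identifiers with a mean under 1 CPM, 9.99% were called, 258 higher and 485 lower of 7438 tested. Of 8638 identifiers between 1 and 10 CPM, 1306 were higher and 1362 lower, and of 4504 between 10 and 100 CPM, 1082 were higher and 1221 lower. Between 100 and 1000 CPM, 41 were higher and 112 lower of 353 tested. In that range lower calls exceeded higher calls under all 8 alternative fits, from 98 lower and 52 higher with no low-count filter to 168 lower and 44 higher when only identifiers of at least 10 CPM were fitted. Between 1 and 100 CPM the larger direction changed with the fit. At 1000 CPM and over, 4 were higher and 5 lower of 16. The precision differed between these levels, with a median SE of the log2 fold change of 1.02 under 1 CPM and 0.18 between 100 and 1000 CPM.

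**Figure D3:**
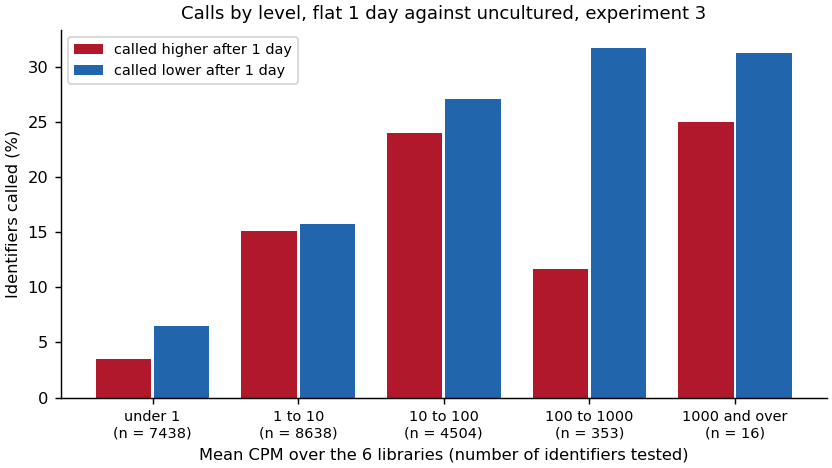
Percentage of identifiers called higher (red) or lower (blue) after 1 day on flat plates in experiment 3 (vertical axis from 0), in 5 ranges of the mean CPM over the 6 libraries (horizontal axis, with the number tested). The bars are of nearly equal height between 1 and 10 CPM, at 15.1% higher and 15.8% lower, and differ most between 100 and 1000 CPM, at 11.6% higher and 31.7% lower.

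The most abundant identifiers of each group were also counted by direction. Ranking by a group's own level favours identifiers that are high in that group, so these counts are descriptions and support no direction. Of the 100 most abundant in uncultured cells outside the 4 leading ones, 36 were called lower and 4 higher. Of the 100 most abundant on flat plates, 17 were lower and 14 higher. Of the 500 most abundant in uncultured cells 213 were lower and 31 higher, and of the 500 on flat plates 98 were lower and 127 higher. The calls themselves set the direction of the shares that follow. In counts outside the 4 leading identifiers, the lower calls held 18.6%, 17.9% and 16.3% of a library on flat plates and 34.3%, 34.5% and 35.8% in uncultured cells. The higher calls held 23.8%, 24.4% and 27.4% on flat plates and 11.7%, 12.0% and 11.1% in uncultured cells.

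The identifiers with the largest changes were examined one by one where they were abundant enough to measure and recurred outside these libraries. A mean of at least 20 CPM, no overlap between groups and a call kept without each of the 6 libraries in turn were met by 382 higher and 582 lower identifiers. Of these, 53 higher and 55 lower were also called in the same direction at 1 day in experiment 5, whose libraries are separate. The 2 highest and 2 lowest are named.

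SMED30026267 was measured at 311, 291 and 269 CPM on flat plates, against 21.4, 33.3 and 25.0 CPM in uncultured cells. The lowest flat-plate library was far above the highest uncultured one, and the log2 fold change was 3.45 (SE 0.25, edgeR adjusted p = 3.58e-11). It was high in every 1-day culture of experiment 3, with means of 173 ± 3.93 CPM on U-bottom plates and 289 ± 29.8 CPM on the polyacrylamide (PA) gel, comparisons that share the 3 uncultured libraries. On flat plates it averaged 258 ± 25.4 CPM at 2 days and 206 ± 68.0 CPM at 3 days (SD, n = 3 each), and neither differed from 1 day by the edgeR test, with adjusted p of 0.938 and 0.232.

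SMED30013183 was measured at 48.7, 56.6 and 45.1 CPM on flat plates, but at 7.15, 8.14 and 6.17 CPM in uncultured cells. The groups were well apart, with a log2 fold change of 2.81 (SE 0.21, edgeR adjusted p = 6.2e-11). Unlike SMED30026267, its mean was higher on each later day, at 79.9 ± 12.9 CPM at 2 days and 88.7 ± 18.2 CPM at 3 days. The difference from 1 day was 0.67 in log2 fold change at 2 days (edgeR adjusted p = 0.169) and 0.82 at 3 days (edgeR adjusted p = 0.0123).

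SMED30013855 fell to a few CPM, with 1.50, 1.80 and 2.50 CPM on flat plates against 53.7, 60.6 and 55.3 CPM in uncultured cells. Its log2 fold change was -4.86 (SE 0.45, edgeR adjusted p = 3.13e-09). It stayed low on flat plates, at 1.60 ± 1.33 CPM at 2 days and 1.44 ± 1.23 CPM at 3 days. After 1 day on U-bottom plates it averaged 1.63 ± 0.477 CPM and on the PA gel 1.22 ± 0.562 CPM.

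SMED30029780 was the most abundant of the 4 before culture, with 36.0, 30.7 and 23.9 CPM on flat plates, against 851, 841 and 928 CPM without culture. Its log2 fold change was -4.85 (SE 0.30, edgeR adjusted p = 1.52e-12). It fell further on the second day, to 10.4 ± 1.63 CPM at 2 days against 30.2 ± 6.07 CPM at 1 day (log2 fold change -1.55, SE 0.27, edgeR adjusted p = 0.00347). At 3 days it averaged 15.2 ± 3.76 CPM, also lower than at 1 day (log2 fold change -0.98, edgeR adjusted p = 0.0303).

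**Figure D4:**
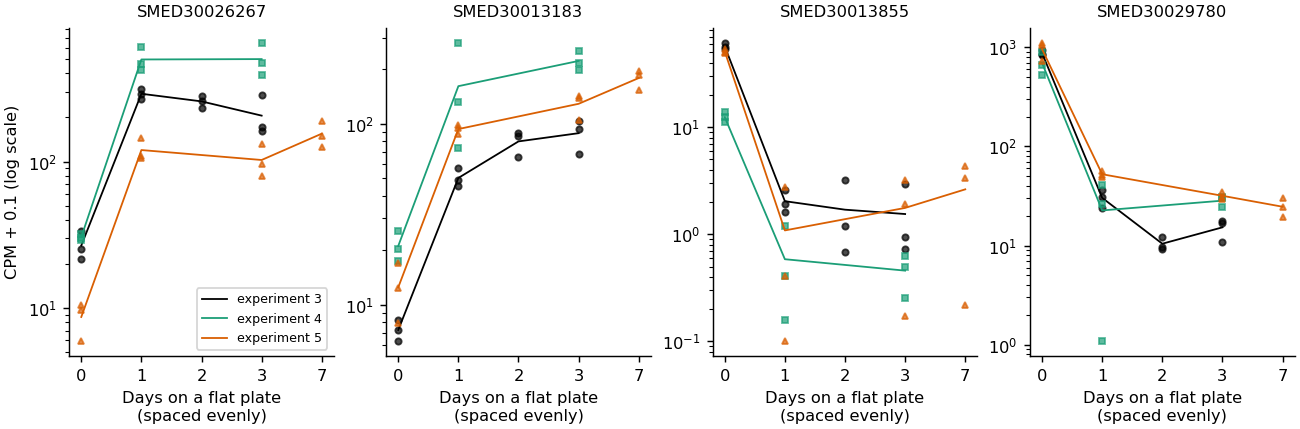
CPM + 0.1 (log scale) of the 4 named identifiers, 1 panel each, against the day on a flat plate, with day 0 for uncultured cells and days evenly spaced. Points are libraries and lines join group means in experiments 3 (black), 4 (green) and 5 (orange), whose tables were made separately: in all 3 experiments every 1-day library lies above every uncultured one for SMED30026267 and SMED30013183, and below for SMED30013855 and SMED30029780.

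Few further changes were called on the second day of flat culture. Between 2 days and 1 day, 71 of 20949 identifiers passed the edgeR test, 0.339%, with 27 higher and 44 lower at 2 days. The comparison uses the 1-day libraries as its baseline, and so shares them with the first step. The number depended on the libraries: it was 28 and 29 without flat 1 day replicates 1 and 2, and 35, 28 and 36 without flat 2 days replicates 1, 2 and 3. DESeq2 called 226 and a fit to these 6 libraries alone called 322, both still fewer than the 6400 and 9659 of the first day by the same tools. Calls went on past that step, with 896 identifiers passing the edgeR test at 3 days against 1 day. Against uncultured cells 7890 passed at 2 days and 8765 at 3 days, beside 5876 at 1 day. The 2-day libraries were also smaller than the 1-day ones, at 14908666 to 17059937 against 20223888 to 25588459 counts.

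Experiments 5 and 4 held the same step in other libraries, 3 of flat plates at 1 day and 3 uncultured in each. The fits of experiment 5 also held flat plates on later days and U-bottom plates with and without tissue extract. Those of experiment 4 also held flat plates on a later day and cultures on HFF1 and MEF fibroblast feeders. In experiment 5, 166 of 24174 identifiers tested were called (0.687%), with 98 higher (0.405%) and 68 lower (0.281%). In experiment 4, 4352 of 26107 were called (16.7%), with 3532 higher (13.5%) and 820 lower (3.14%). The tables were made separately and no model was fitted across them. Neither the counts nor their split by direction were stable. In experiment 5 lower calls were the majority when only the compared groups were fitted, with 666 higher and 1194 lower, by DESeq2, with 215 higher and 421 lower, and, by 31 to 30, without uncultured replicate 2. In experiment 4 the fit to the compared groups alone gave 927 higher and 747 lower calls, a far smaller excess of higher calls, and DESeq2 gave 5479 higher and 1445 lower. The count of experiment 5 was 74, 74 and 81 without flat replicates 1, 2 and 3, and 61 without uncultured replicate 2 or 3. The count of experiment 4 was 1935 without flat replicate 2, and 1393, 662 and 1092 without uncultured replicates 1, 2 and 3.

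The small number of calls in experiment 5 fell mostly within those of experiment 3. Called higher in both were 80 identifiers, 81.6% of those called higher in experiment 5 and 3.07% of those of experiment 3 that were also tested in experiment 5. Of all identifiers tested in both, 0.506% were called higher in experiment 5, and 12.8% of all those tested in experiment 3 were called higher there. Called lower in both were 64, 94.1% of the experiment 5 list and 2.06% of the experiment 3 list, against 0.351% of all tested in both that were called lower in experiment 5 and 15.2% of all tested in experiment 3. No identifier was called in opposite directions. Signs were also compared over all calls of experiment 3. Of the 2602 higher calls of experiment 3 that were tested in experiment 5, 2265 (87.0%) had a positive log2 fold change there, with a median of 0.71, whereas 45.1% of all identifiers tested in both were positive and their median was -0.10. Of the 3110 lower calls, 2914 (93.7%) were negative in experiment 5, with a median of -0.94, against 54.0% of all. Among identifiers of at least 10 CPM these shares were 94.2% and 94.5%, against 53.5% positive and 46.5% negative of all at that level. The 144 calls common to both experiments numbered 62, 66 and 74 without flat replicates 1, 2 and 3 of experiment 5, and 54 and 58 without its uncultured replicates 2 and 3.

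In experiment 4 the signs were less often those of experiment 3, a difference from experiment 5 that was not tested. Of the 2570 higher calls of experiment 3 tested there, 62.2% had a positive log2 fold change, with a median of 0.45, against 46.7% of all identifiers tested in both. Of the 3127 lower calls, 82.1% were negative, with a median of -1.42, against 53.3% of all. Among identifiers of at least 10 CPM these shares were 57.7% and 78.8%, against 44.5% positive and 55.5% negative of all at that level. Called in the same direction were 276 higher identifiers, 10.7% of the experiment 3 list and 18.0% of the experiment 4 list, and 18 were called in the opposite direction. These shares were not far from those over all features, since 7.96% of all identifiers tested in both were called higher in experiment 4 and 12.8% of all tested in experiment 3 were called higher there. Called lower in both were 395, 12.6% of the experiment 3 list and 50.1% of the experiment 4 list, with 13 called in the opposite direction. Over all features, 4.10% of those tested in both were called lower in experiment 4 and 15.2% of those tested in experiment 3 were called lower there. The 671 shared calls of experiments 3 and 4 were 433 without flat replicate 3 of experiment 3, 422 and 321 without flat replicates 1 and 2 of experiment 4, and 268, 161 and 217 without its uncultured replicates 1, 2 and 3. Of 18512 identifiers tested in all 3 experiments, 30 were called higher and 24 lower in each.

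**Figure D5:**
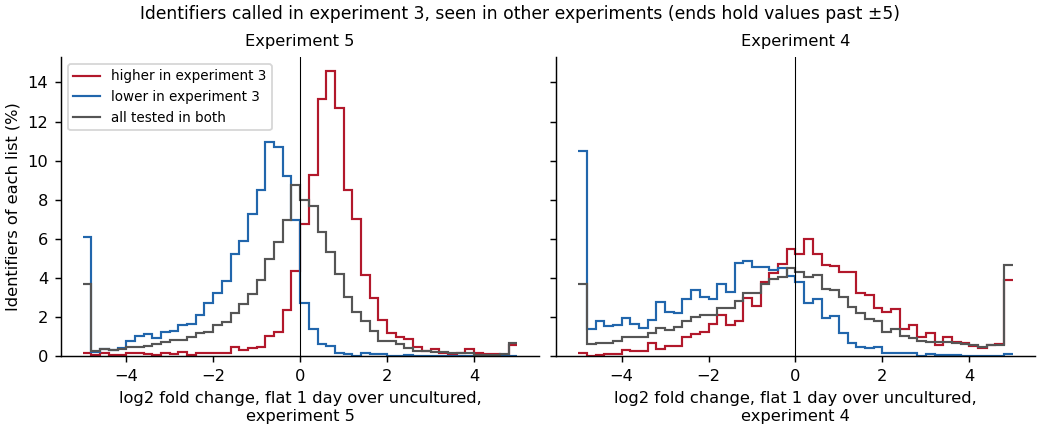
Distribution of the log2 fold change, flat 1 day over uncultured, in experiment 5 (left) and experiment 4 (right), for identifiers called higher in experiment 3 (red), called lower in experiment 3 (blue) and all tested in both (grey). The vertical axis is the percentage of each list per bin, and the end bins hold values past ±5. In experiment 5, 87.0% of the red list is positive and 93.7% of the blue list negative, with medians of 0.71 and -0.94. In experiment 4 these shares are 62.2% and 82.1%, with medians of 0.45 and -1.42.

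The changes that exceeded 2-fold in experiment 3 were followed in the same way, beside 54.0% negative and 45.1% positive among all identifiers tested in both experiments 3 and 5, and 53.3% negative and 46.7% positive for experiments 3 and 4. Of the 601 lower ones, 586 were tested in experiment 5 and 581 of these were negative there, with a median of -1.92. In experiment 4, 588 were tested and 566 were negative, with a median of -2.80. Of the 223 higher ones, 204 of 215 tested were positive in experiment 5, with a median of 1.25, and 137 of 207 in experiment 4, with a median of 0.73. Fewer were called in the same direction: 58 lower and 30 higher in experiment 5, and 158 lower and 26 higher in experiment 4. Of all identifiers tested in both, 0.351% were called lower and 0.506% higher in experiment 5, and 4.10% lower and 7.96% higher in experiment 4. Of the 25 largest increases among the 382 identifiers that met the first conditions for naming, with log2 fold changes of 2.00 to 3.45, all 25 were positive in experiment 5 and 18 in experiment 4. All 25 of the largest decreases among the 582, with log2 fold changes of -8.64 to -2.77, were negative in both. Of the 25 increases, 11 were called in the same direction in experiment 5 and 7 in experiment 4, where 1 was called in the opposite direction. Of the 25 decreases, 13 were called in the same direction in experiment 5 and 12 in experiment 4.

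All 4 named identifiers passed the edgeR test in both other experiments, experiment 5 having been used to choose them. In experiment 4, which was not, SMED30026267 averaged 498 ± 95.7 CPM on flat plates at 1 day and 30.4 ± 1.46 CPM in uncultured cells (log2 fold change 4.04, edgeR adjusted p = 1.9e-06). SMED30013183 averaged 161 ± 106 CPM on flat plates, against 21.0 ± 4.14 CPM without culture (log2 fold change 2.94, edgeR adjusted p = 0.00527). SMED30013855 averaged 0.485 ± 0.539 CPM on flat plates, against 12.3 ± 1.30 CPM without culture (log2 fold change -4.63, edgeR adjusted p = 0.037). Both of these means were below those of experiment 3, across tables made separately. SMED30029780 averaged 22.5 ± 20.1 CPM on flat plates, against 694 ± 192 CPM without culture (log2 fold change -4.94, edgeR adjusted p = 0.0105; SD, n = 3 each). In experiment 5 the flat-plate and uncultured means were 120 ± 21.0 and 8.56 ± 2.43 CPM for SMED30026267. They were 93.5 ± 5.40 and 12.4 ± 4.61 CPM for SMED30013183, 0.986 ± 1.45 and 50.7 ± 2.73 CPM for SMED30013855, and 52.3 ± 3.91 and 955 ± 206 CPM for SMED30029780.

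The most abundant identifiers did not follow that pattern. Rank 1 of experiment 3 took 11.6% ± 1.69 of counts on flat plates at 1 day and 5.13% ± 3.02 in uncultured cells of experiment 5 (SD, n = 3 each). Its log2 fold change there was 1.42, with an edgeR adjusted p of 0.0553. In experiment 4 it took 0.939% ± 0.266 on flat plates and 3.62% ± 1.87 in uncultured cells, a log2 fold change of -1.73 with an edgeR adjusted p of 0.000472, opposite to experiment 3. Rank 2 took 13.0% ± 4.01 on flat plates and 17.8% ± 3.16 in uncultured cells of experiment 5, and 2.44% ± 0.440 and 2.75% ± 1.17 in those groups of experiment 4. Neither passed the edgeR test, with adjusted p of 0.958 and 0.927. The leading identifiers of the deposited values also differed between the experiments without culture. In uncultured cells, rank 3 held 24.0% ± 1.63 of counts in experiment 5 and 25.5% ± 2.33 in experiment 4, more than any other of the 4. It held 13.1% ± 2.22 in experiment 3. The deposited values were fractional in experiment 3 and whole in experiments 4 and 5. A difference in the cells and a difference in how the tables were made cannot be told apart here.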

How the data were processed

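RNA was measured in 6 libraries of experiment 3 (3 flat plate at 1 day, 3 uncultured), with the other 20 libraries of that experiment and the libraries of experiments 4 and 5 used where stated. Per the labels, the authors deposited 1 table of raw counts per experiment. In experiment 3 none of the non-zero deposited values is whole, and they are called estimated counts here. In experiments 4 and 5 the deposited counts are whole. How the values of each table were made from reads is not stated. The submitters' processing notes list kallisto 0.46.2 and R 4.0.5 without saying what each did. Not given in the sources used here were the transcriptome, annotation, build and filters. Total counts per library ran from 12386601 to 25588459 for experiment 3, from 6775383 to 42691160 for experiment 4, and from 3333661 to 30686937 for experiment 5. Experiments 1 and 2 hold no uncultured libraries and were not used here.

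Estimated counts were rounded. Within each experiment, all groups were fitted with 1 mean per group in edgeR 4.0.16 (R 4.3.3) after its default expression filter and TMM scaling. The quasi-likelihood F test, two-sided, was adjusted by Benjamini-Hochberg over all identifiers tested, with a threshold of 0.05, and glmTreat tested against a fold of 2. SE was taken as the size of the log2 fold change over the square root of the F statistic. CPM were made from effective library sizes. Detected identifiers, shares and library distances were compared by exact permutation tests in scipy 1.17.1, and equal depth means the expected number at the smallest total. The fits were first tested on simulated data, with 50 identifiers changed by each fold, all picked above a minimum level. Of those raised or lowered 2-fold, 66% were called in each direction. At 4-fold, 100% of the raised and 98% of the lowered ones were called. Of 172 calls in total, 7 were false. Named are the 2 identifiers with the highest and the 2 with the lowest log2 fold change, out of calls that had 20 CPM or more on average, no overlap between groups, a call kept without each of the 6 libraries, and a call in the same direction in experiment 5. The members, measures and lists were chosen with earlier results of these data known. Cell type marker lists could be matched only by gene name, and the tables pair no identifier with one.

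In no experiment did all same-numbered flat 1 day and uncultured libraries deviate together (in experiment 5 a part of them did), so the replicate number was not taken as a pairing. Alternatives were RLE scaling, other low-count filters, the compared groups alone, a replicate block, removal of the 4 most abundant identifiers, DESeq2 1.42.0 and omission of each library, and, chosen after seeing the data, a fit of the uncultured and 1-day groups alone.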

Additional observations from a re-analysis of the deposited data

Results flagged for a closer look

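The identifiers of rank 1 and rank 4 in abundance moved in opposite directions in experiments 4 and 3, with every library of the flat-plate group on 1 side of every uncultured library in both. The difference between the experiments was not tested, because their tables were made separately. The log2 fold change of rank 1 was -1.73 in experiment 4 and 2.10 in experiment 3, and that of rank 4 was -3.20 in experiment 4 and 0.96 in experiment 3. Rank 1 had a log2 fold change of 1.42 in experiment 5. Rank 4 held 0.00335% ± 0.00150 of counts on flat plates at 1 day and 0.0354% ± 0.0174 in uncultured cells of experiment 4 (SD, n = 3 each). In experiment 5 its log2 fold change had the sign of experiment 3, at 0.64, without passing the edgeR test (adjusted p = 0.677), and it held 0.0110% ± 0.000918 on flat plates and 0.00837% ± 0.000638 in uncultured cells, without overlap. In experiment 3 it held 4.31% ± 0.221 on flat plates and 2.69% ± 0.399 in uncultured cells.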

How the results depend on the processing

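In place of 5876 first-day calls, a separate fit of identifiers of at least 10 CPM over all 26 libraries, which tests fewer, gave 2695. Of these, 2293 were shared with the 5876 in direction, and a fit of the compared groups alone gave 9659. Omitting 1 library gave 3901 to 4713. Beyond 2-fold (824), the counts were 290, 2606, 1717 with the uncultured and 1-day groups alone, and 395 to 573 with 1 library omitted. Lower minus higher calls (494) reversed to -244 with no low-count filter and to -67 with the uncultured and 1-day groups alone, and the cause was not tested. Counts of 2 days against 1 day (71) were 226 by DESeq2, 322 with the compared groups alone and 28 to 60 with 1 library omitted. Experiment 5 (166) gave 636, 1860 and 61 to 210 in the same settings, and experiment 4 (4352) gave 6924, 1674 and 662 to 3876. Calls shared by experiments 3 and 5 (144) were 407, 1497 and, with 1 library omitted, 54 to 172, among them 62, 66 and 74 without flat replicates 1, 2 and 3 and 58 without uncultured replicate 3 of experiment 5. Calls shared by experiments 3 and 4 (671) were 1153 by DESeq2, 197 under a cut of at least 10 CPM and 161 to 545 with 1 library omitted. Among the latter were 433 without flat replicate 3 of experiment 3, 422 and 321 without flat replicates 1 and 2 of experiment 4, and 268 and 217 without its uncultured replicates 1 and 3. A cut at 10 CPM on the mean of the 6 libraries of experiment 3 is a different one, and left 115 higher and 110 lower shared calls. The 3 called abundant identifiers kept direction and call in experiment 3 under every alternative that gave them a value. So did the 4 named ones, but their choice required a call kept without each library in turn. For them those omissions were therefore settled beforehand. The differences in detected identifiers, in the share of the 4 and in library distance kept their direction under every alternative.

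With the replicate number as a block, the first-day calls numbered 5612, 759 beyond 2-fold, with 546 more lower than higher, and 65 at 2 days, 173 in experiment 5 and 3697 in experiment 4. Shared calls were 150 and 589. Deviations of same-numbered libraries of experiment 3 from their group means correlated at 0.0296, 0.0710 and -0.185 over 4873 identifiers. Those of experiment 4 correlated at -0.0607, -0.131 and 0.000847, and those of experiment 5 at 0.233, 0.00153 and 0.185. The requirement that each exceed 0.1 was met in no experiment, which does not exclude a pairing. Different-numbered libraries of experiment 5 correlated at -0.226 to 0.124. Rank 1 in experiment 5 had an adjusted p of 0.0266 with the block (edgeR), and over its alternatives the adjusted p ran from 0.00305, without uncultured replicate 1, to 0.543, without uncultured replicate 3. Depth limits the identifiers under 1 CPM, whose median SE of the log2 fold change was 1.02.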
